A study of Homo sapiens with 12 samples.

Results

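The integrated stress response was followed through 10 genes in pancreatic cancer cells with GOT1 knocked down. They are ATF4, DDIT3, ATF3, TRIB3, CHAC1, SESN2, DDIT4, ASNS, CEBPB and PPP1R15A, taken by gene name from the 58721 genes of the deposited tables. All 10 were found, each under 1 Ensembl identifier, and all 10 passed the filter on low counts in the 4 comparisons. The cells were of 2 human lines of pancreatic cancer, Pa-Tu-8902 and MIA PaCa-2, each stably transduced with a hairpin construct that silences GOT1 once doxycycline (dox) is added. GOT1 is the cytosolic aspartate aminotransferase, which exchanges an amino group between aspartate and glutamate. The 4 groups were Pa-Tu-8902 untreated, Pa-Tu-8902 dox, MIA PaCa-2 untreated and MIA PaCa-2 dox, with 3 RNA-seq libraries each, and dox was given for 5 days. The untreated cells carried the same hairpin construct, and dox was not given to cells with a control hairpin among these libraries, so an effect of dox and an effect of GOT1 loss cannot be told apart. Nothing in the sources used here says that the 3 libraries of a group came from separate cultures, and p-values then measure only the spread between these libraries, which may be technical.

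The integrated stress response starts when a kinase such as GCN2, PERK, PKR or HRI phosphorylates the initiation factor eIF2alpha. Most translation then slows, while the ATF4 mRNA, which has upstream open reading frames, is translated more. ATF4 pairs with other leucine zipper proteins and switches on genes for amino acid synthesis and import, redox control and, in long stress, cell death. An mRNA level does not measure how much ATF4 protein a cell makes. In whole cultures such as these, fewer cells with a transcript and less of it per cell cannot be told apart.

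ATF4 with partners such as C/EBP proteins is known to bind the C/EBP-ATF response element, searched here as TGATGNAA, and CREB and ATF family proteins the cAMP response element TGACGTCA. Both strands were searched in the RefSeq promoter windows of assembly GRCh38.p14, which run from 250 bases before to 50 bases after each annotated start site. All 10 genes had at least 1 window. The 4 stretches that hold a match are shown because they place the element in genes whose response to dox is described below, with the matched letters in capitals, 5′ to 3′ along the strand of the gene.
ASNS: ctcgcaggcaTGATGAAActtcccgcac
ATF3: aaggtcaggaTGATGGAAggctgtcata
CHAC1: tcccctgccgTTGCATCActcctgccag
PPP1R15A: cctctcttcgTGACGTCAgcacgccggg
The ASNS stretch is at chr7:97872459-97872486 on the minus strand, and the match begins 68 bases before the start site. In GENCODE release 44, also on GRCh38, an exon of 2 of the 17 ASNS transcripts covers it. The ATF3 stretch is at chr1:212565206-212565233 on the plus strand, 191 bases before the start site and outside the 10 ATF3 transcripts. The CHAC1 stretch is at chr15:40953252-40953279 on the plus strand, where the match reads on the opposite strand, 209 bases before the start site used and within an exon of 1 of 3 transcripts. The PPP1R15A stretch is at chr19:48872353-48872380 on the plus strand, 58 bases before the start site used and within an exon of 1 of 5 transcripts. The C/EBP-ATF element was thus in a window of 3 of the 10 genes, against 4.46% of the 27305 genes with a window, and the cAMP response element in 1 of 10 against 2.25%. The 10 genes had 1 to 3 windows each, and 3.62% of all 35116 windows held the C/EBP-ATF element. These shares were not tested. The endoplasmic reticulum stress element, a CCAAT and a CCACG parted by 9 bases, was in 0 of 10 against 0.0916%. The 2 shorter motifs differ in letters and no printed match was of both. These matches are descriptions of the windows, and the 6 genes without one may carry such elements elsewhere.

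The depth was 26226537 to 43406137 counts per library, at which a count of 0 allows up to 0.0691 to 0.114 CPM (counts scaled to library size), for counting error only. GOT1 itself was 0.0402 of its untreated level in Pa-Tu-8902 with dox and 0.0368 in MIA PaCa-2, as both sets of labels call for. Of 6 epithelial genes, 6 were above 1 TPM (transcripts scaled to gene length and library size) in each Pa-Tu-8902 library and 3 in each MIA PaCa-2 library, so MIA PaCa-2 carried fewer of these markers of an epithelial cancer. Endothelial markers summed to at most 1.14 TPM, acinar and endocrine markers to at most 0.72 TPM, and immune markers to 3.55 to 13.6 TPM. The sum of 6 fibroblast markers was 3.82 to 6.38 TPM in untreated and 18.0 to 21.7 TPM in dox-treated Pa-Tu-8902, nearly all of it COL1A1. In MIA PaCa-2 it was 192 to 248 TPM untreated and 340 to 398 TPM with dox, nearly all of it COL1A2, while DCN and LUM were at 0 to 0.14 TPM in each of the 12 libraries. The share of mitochondrially encoded transcripts was 0.714% to 0.934% in untreated and 0.873% to 1.61% in dox-treated Pa-Tu-8902, while MIA PaCa-2 had 1.09% to 1.33%. The part of these values in the results below was not tested. MIA PaCa-2 untreated replicate 2 stood apart from its group: its counts differed from those of replicates 1 and 3 by a chi-square of 27.3 and 25.5 per degree of freedom, against 6.401 between replicates 1 and 3. In Pa-Tu-8902, untreated replicate 3 differed from replicates 1 and 2 by 8.93 and 10.8, against 2.25 between replicates 1 and 2. Dox replicates 1 and 2 of that line differed by 20.6. Results that change without MIA PaCa-2 untreated replicate 2 are given both ways.

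ATF4 was the most abundant of the 10 genes in untreated cells of both lines. On the TPM scale, which accounts for transcript length, untreated Pa-Tu-8902 had 327 ± 10.7 TPM of ATF4, 233 ± 2.20 of DDIT4, 64.1 ± 0.488 of ASNS, 48.1 ± 2.84 of CEBPB and 44.6 ± 0.229 of PPP1R15A (SD, n = 3). TRIB3 was next at 35.1 ± 2.90 TPM, followed by DDIT3 at 20.4 ± 0.813, CHAC1 at 12.01 ± 1.54, ATF3 at 5.83 ± 0.495 and SESN2 at 5.68 ± 0.368 (SD, n = 3). The ranges of neighbours in this order did not overlap, except those of ATF3 and SESN2. In untreated MIA PaCa-2 the order was ATF4 at 215 ± 3.57 TPM, DDIT4 at 83.7 ± 6.16, ASNS at 71.7 ± 9.08, CEBPB at 28.1 ± 0.131 and DDIT3 at 25.6 ± 1.47 (SD, n = 3). Below these stood TRIB3 at 18.6 ± 1.05 TPM, PPP1R15A at 16.0 ± 0.840, SESN2 at 9.81 ± 1.36, CHAC1 at 7.99 ± 0.305 and ATF3 at 4.37 ± 0.954 (SD, n = 3), and here the ranges of DDIT4 and ASNS overlapped. With dox DDIT4 passed ATF4 to lead in Pa-Tu-8902, at 297 ± 7.31 against 260 ± 7.21 TPM (SD, n = 3), with ranges that did not overlap. In MIA PaCa-2 with dox ATF4 still led at 218 ± 4.55 TPM and ATF3 had the lowest mean at 4.36 ± 1.44 (SD, n = 3), with a range that overlapped that of CHAC1, as did the ranges of DDIT3 and SESN2. In Pa-Tu-8902 with dox the ranges of SESN2 and CHAC1 overlapped.

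**Figure D1:**
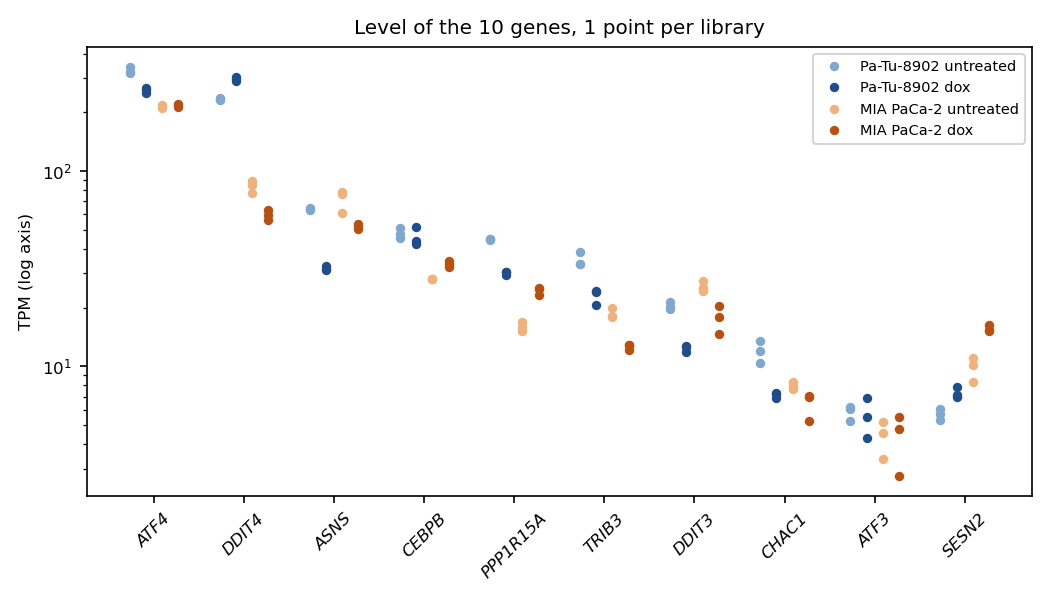
Level of each of the 10 genes in TPM on a log axis, with 1 point per library and a colour for each of the 4 groups; genes run from the highest to the lowest mean in untreated Pa-Tu-8902. ATF4 and DDIT4 stand above the other 8 genes in Pa-Tu-8902, whereas in untreated MIA PaCa-2 the points of DDIT4 and ASNS share a range.

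In the account of each gene below, values are normalized counts, which are counts divided by the effective size of the library relative to the mean of the 12 libraries. A gene was called when its Benjamini-Hochberg adjusted p in edgeR's quasi-likelihood test was below 0.01 and its fold change was at least 1.5. In Pa-Tu-8902 with dox, 5 of the 10 genes were called lower and 0 higher. The genes that fell were ASNS, CHAC1, DDIT3, TRIB3 and PPP1R15A, which span an amino acid enzyme, a glutathione-degrading enzyme, a death-linked transcription factor, a pseudokinase and a phosphatase subunit. The background was 7.12% of 14949 genes tested that fell, 9.22% that rose and 16.3% called in either direction. The median log2 fold change of the 10 genes was -0.53, against 0.0015 over the genes tested. In 8 of the 10 the untreated and dox libraries did not overlap, where 58.1% of genes tested had groups apart in this way. In MIA PaCa-2, 2 genes fell, DDIT3 and TRIB3, and 1 rose, SESN2. There 7.64% of 14589 genes tested fell, 4.36% rose and 12% were called in either direction. The median over the 10 genes was -0.33, against -0.0089 over the genes tested, and again 8 of 10 had groups apart, against 52.8% of genes tested. DDIT3 and TRIB3 were thus called lower in both lines, which is 2 of the 5 genes called in Pa-Tu-8902 and 2 of the 3 called in MIA PaCa-2.

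**Figure D2:**
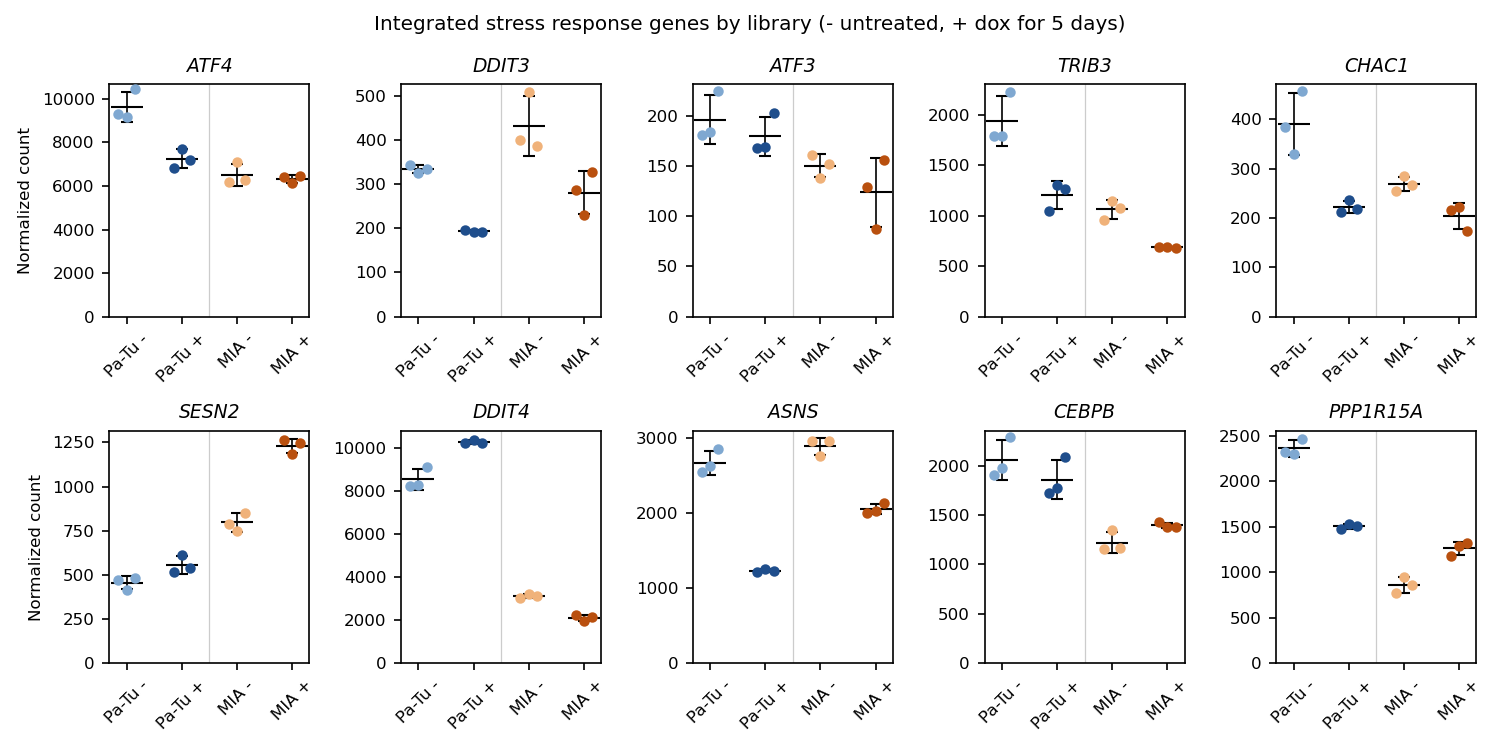
Normalized count of each of the 10 genes in the 12 libraries, 1 panel per gene with an axis from 0, where - marks untreated and + dox; points are libraries, the long bar is the mean of a group and the whiskers are its SD (n = 3). ASNS, TRIB3, DDIT3 and CHAC1 lie lower with dox in both lines, SESN2 lies higher, and PPP1R15A and DDIT4 move in opposite directions in Pa-Tu-8902 and MIA PaCa-2.

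ATF4, the transcription factor at the centre of the response, was lower with dox in Pa-Tu-8902 by less than the fold limit. Its normalized counts were 9320, 9171 and 10440 in the untreated and 6843, 7707 and 7205 in the dox libraries of Pa-Tu-8902. The groups were apart, with a log2 fold change of -0.41 ± 0.062 (SE), a 95% confidence interval of -0.55 to -0.27 and an adjusted p of 0.00027 in edgeR. In MIA PaCa-2 the counts were 6196, 7095 and 6258 untreated and 6398, 6131 and 6461 with dox, so the groups overlapped. The log2 fold change there was -0.04, with an interval of -0.19 to 0.11, and it was 0.02 without untreated replicate 2, the library with the highest normalized count of its group but, at 211.5, its lowest TPM. The difference of the dox response between the lines, Pa-Tu-8902 minus MIA PaCa-2, was -0.37 ± 0.098 on the log2 scale, with an adjusted p of 0.0092 in edgeR and a size under the fold limit. The transcript ATF4-202 made up 98.9% of the ATF4 signal in untreated Pa-Tu-8902 and 96.2% in dox-treated MIA PaCa-2, the ends of its range over the group means. RSEM's count of ATF4 was not whole in 8 of 12 libraries, as happens where reads can be placed at more than 1 locus.

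The other leucine zipper factors among the 10 differed in their response. DDIT3, known as CHOP and tied to cell death in unresolved stress, had 344, 325 and 334 normalized counts in untreated and 195, 193 and 191 in dox-treated Pa-Tu-8902. All 3 dox libraries lay below the 3 untreated ones, and DDIT3 fell by 0.79 ± 0.089 on the log2 scale (adjusted p = 3.6e-05, edgeR). In MIA PaCa-2 it had 399, 509 and 386 counts untreated and 286, 229 and 327 with dox, again without overlap but with a wider spread. The fall there was 0.61 ± 0.14 (adjusted p = 0.0054, edgeR), and the call was lost without any 1 of untreated replicates 1 and 2 and dox replicates 1 and 2, with log2 fold changes of -0.66, -0.48, -0.63 and -0.50. The difference between the lines was -0.18, with an interval of -0.56 to 0.20, which spans 0. DDIT3 overlaps MARS1 and MBD6, 2 genes of the other strand, and a longer gene of its own strand in GENCODE release 44, and its count was not whole in 5 of 12 libraries, so its values carry that uncertainty.

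ATF3, a stress-induced factor of the same family, was the least abundant of these factors and the change could not be told from the spread. It had 181, 183 and 224 normalized counts in untreated and 168, 168 and 202 in dox-treated Pa-Tu-8902, and 161, 138 and 152 against 129, 87.1 and 156 in MIA PaCa-2. The groups overlapped in both lines, with log2 fold changes of -0.13 (interval -0.41 to 0.15) and -0.27 (interval -0.68 to 0.15). CEBPB, a C/EBP factor that can pair with ATF4, had 1907, 1980 and 2293 counts in untreated and 1723, 1772 and 2085 in dox-treated Pa-Tu-8902. These overlapped, with a log2 fold change of -0.15 (interval -0.33 to 0.04). In MIA PaCa-2 its counts of 1160, 1345 and 1163 untreated lay below those of 1427, 1377 and 1382 with dox, a log2 fold change of 0.19 (interval 0.03 to 0.36) that missed the threshold at an adjusted p of 0.052 in edgeR. The difference of the CEBPB response between the lines was -0.34 (adjusted p = 0.044, edgeR). CEBPB-AS1, an antisense RNA, overlaps CEBPB, and the study's methods give RSEM's default settings, which do not use strand. Reads of the antisense RNA therefore cannot be told from those of CEBPB where the genes overlap. RSEM's count of CEBPB was whole in each of the 12 libraries.

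TRIB3, a pseudokinase induced by ATF4 and CHOP that is known to restrain ATF4 in turn, fell by similar amounts in the lines. It had 1790, 1792 and 2221 normalized counts in untreated and 1048, 1307 and 1262 in dox-treated Pa-Tu-8902, a fall of 0.68 ± 0.097 on the log2 scale (adjusted p = 0.00019, edgeR). In MIA PaCa-2 it had 962, 1148 and 1078 counts untreated and 694, 689 and 680 with dox, a fall of 0.63 ± 0.079 (adjusted p = 9.6e-05, edgeR). No dox library of TRIB3 reached the lowest untreated library of its line. The difference between the lines was -0.05, with an interval of -0.34 to 0.24. Both falls were close to the fold limit: without Pa-Tu-8902 untreated replicate 3 or dox replicate 1 the fold change was -0.57 in either case and no longer called.

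CHAC1, an enzyme that breaks down glutathione, had 385, 330 and 456 normalized counts in untreated and 213, 236 and 219 in dox-treated Pa-Tu-8902. The groups were apart and CHAC1 fell by 0.80 ± 0.12 on the log2 scale (adjusted p = 0.00027, edgeR). In MIA PaCa-2 the counts were 255, 284 and 267 untreated and 216, 222 and 174 with dox, also apart, with a log2 fold change of -0.40 (interval -0.66 to -0.14) at an adjusted p of 0.020 in edgeR. The difference between the lines was -0.40 (interval -0.78 to -0.03), with an adjusted p of 0.11 in edgeR.

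ASNS, which makes asparagine from aspartate and glutamine and is a textbook ATF4 target, showed the largest fall of the 10 genes in Pa-Tu-8902. Its normalized counts were 2536, 2619 and 2845 in untreated and 1208, 1253 and 1231 in dox-treated Pa-Tu-8902, which leaves 0.462 of the untreated level. The log2 fold change was -1.11 ± 0.054, with an adjusted p of 9.6e-08 in edgeR. In MIA PaCa-2 it had 2950, 2757 and 2950 counts untreated and 1997, 2029 and 2124 with dox. These were also apart, with a log2 fold change of -0.49 ± 0.061 (adjusted p = 8.7e-05, edgeR), a level of 0.712 that is inside the fold limit. The response was larger in Pa-Tu-8902 by -0.62 ± 0.084 on the log2 scale (adjusted p = 2.7e-05, edgeR), a difference that dropped under the fold limit, at -0.57, -0.57 and -0.58, without Pa-Tu-8902 untreated replicate 3, MIA PaCa-2 untreated replicate 2 or MIA PaCa-2 dox replicate 3. The main transcript ASNS-202 held 85.2% ± 4.31 of the ASNS signal in untreated and 77.8% ± 6.60 in dox-treated Pa-Tu-8902, and 64.0% ± 3.32 and 73.9% ± 4.75 in MIA PaCa-2 (SD, n = 3). A long non-coding RNA of the same strand and a processed pseudogene overlap ASNS, and its count was not whole in 12 of 12 libraries.

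PPP1R15A, known as GADD34, directs a phosphatase to eIF2alpha and so ends the response, and it moved in opposite directions in the lines. It had 2322, 2297 and 2470 normalized counts in untreated and 1477, 1530 and 1508 in dox-treated Pa-Tu-8902, a fall of 0.65 ± 0.049 on the log2 scale (adjusted p = 2.0e-06, edgeR). In MIA PaCa-2 the counts were 776, 947 and 859 untreated and 1182, 1284 and 1319 with dox, a log2 fold change of 0.56 ± 0.084 (adjusted p = 0.00034, edgeR) just inside the fold limit. The groups were apart in both lines, and the MIA PaCa-2 value was called, at 0.62 and 0.59, without untreated replicate 2 or dox replicate 1. The difference between the lines was -1.20 ± 0.10 (adjusted p = 1.3e-07, edgeR), the largest among the 10 genes.

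DDIT4 and SESN2 both encode inhibitors of the growth kinase complex mTORC1. DDIT4, known as REDD1, had 8271, 8275 and 9132 normalized counts in untreated and 10233, 10387 and 10263 in dox-treated Pa-Tu-8902, a log2 fold change of 0.27 ± 0.050 (adjusted p = 0.0012, edgeR) inside the fold limit. In MIA PaCa-2 it had 3035, 3204 and 3139 counts untreated and 2238, 1965 and 2160 with dox, a log2 fold change of -0.56 ± 0.066 (adjusted p = 5.6e-05, edgeR), also inside it except without dox replicate 1, where it was -0.60. Neither line had overlapping groups, and the difference between the lines, 0.83 ± 0.086, was called (adjusted p = 1.7e-06, edgeR). SESN2, a leucine sensor, had 473, 412 and 484 counts in untreated and 514, 613 and 540 in dox-treated Pa-Tu-8902, a log2 fold change of 0.29 (interval 0.08 to 0.50) with an adjusted p of 0.024 in edgeR. In MIA PaCa-2 the counts of 788, 750 and 852 untreated gave way to 1264, 1186 and 1244 with dox, and SESN2 rose by 0.63 ± 0.072 on the log2 scale (adjusted p = 4.4e-05, edgeR). The difference between the lines was -0.34 with an adjusted p of 0.044 in edgeR.

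**Figure D3:**
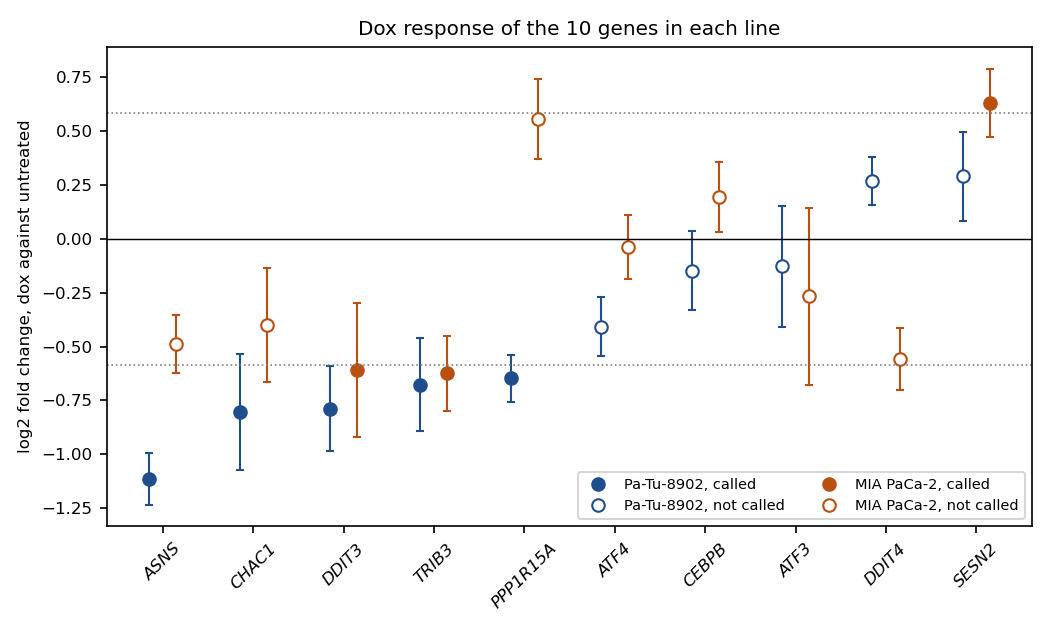
Log2 fold change of dox against untreated for each of the 10 genes in Pa-Tu-8902 and MIA PaCa-2 with its 95% confidence interval; filled points are called and dotted lines mark a fold change of 1.5 up or down. ASNS at -1.11 in Pa-Tu-8902 is the lowest point and SESN2 at 0.63 in MIA PaCa-2 the highest.

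In the test of the difference between the lines, 3 of the 10 genes were called: ASNS and PPP1R15A with a lower and DDIT4 with a higher response in Pa-Tu-8902. Over the 16544 genes tested, 10.4% were called, 3.86% lower and 6.56% higher. The calls in MIA PaCa-2 depended on its untreated replicate 2, the library that stood apart. Without it DDIT3, TRIB3 and SESN2, at -0.48, -0.57 and 0.58, were each under the fold limit, TRIB3 and SESN2 only just. Their adjusted p was 0.0029, 2.1e-06 and 7.8e-07 in edgeR. PPP1R15A was called, so that 1 of 10 genes was called in place of 3. With limma on log2(TPM + 1), PPP1R15A in Pa-Tu-8902 at -0.55, DDIT3 and TRIB3 in MIA PaCa-2 at -0.52 each and the ASNS difference at -0.54 were not called.

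At baseline 5 of the 10 genes differed between the untreated lines, 4 higher and 1 lower in Pa-Tu-8902. The background here was 58.1% of 15608 genes tested, with 28.9% higher and 29.3% lower, so a share of 5 in 10 was near it. PPP1R15A was 2.72 times and DDIT4 2.71 times as high in untreated Pa-Tu-8902 as in untreated MIA PaCa-2, with log2 differences of 1.44 ± 0.079 and 1.44 ± 0.066 (SE). TRIB3 was higher by 0.85 ± 0.092 and CEBPB by 0.74 ± 0.084, and SESN2 was lower, at a log2 difference of -0.82 ± 0.095. The adjusted p of these 5 genes was at most 2.9e-06 in edgeR. ATF4 at 0.55, CHAC1 at 0.52 and DDIT3 at -0.38 passed the p threshold but not the fold limit, and ATF3 at 0.36 and ASNS at -0.13 passed neither. ATF4 and CHAC1 were also called without Pa-Tu-8902 untreated replicate 1, at 0.66 and 0.62, or replicate 2, at 0.67 and 0.72. For 9 of 10 genes the untreated libraries of the lines did not overlap, against 81.5% of genes tested, and ASNS was the exception. Line and any difference in how the lines were handled cannot be told apart.

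The factors upstream of ATF4 were read from lists written from general knowledge. Of 9 genes for eIF2alpha kinases and their activators, 1 rose and 1 fell in Pa-Tu-8902 and 0 were called in MIA PaCa-2, with medians of -0.06 and -0.14 on the log2 scale, where 16.3% and 12% of genes tested were called in these comparisons. EIF2AK4, which encodes the amino acid sensor kinase GCN2, had 5853 to 5934 normalized counts in untreated and 3799 to 3973 in dox-treated Pa-Tu-8902 and fell by 0.60 ± 0.044 (adjusted p = 1.5e-06, edgeR). In MIA PaCa-2 its log2 fold change was -0.15 (adjusted p = 0.079, edgeR), and the difference between the lines was -0.45 (adjusted p = 0.00042, edgeR). OMA1, a mitochondrial protease that relays mitochondrial stress to the kinase HRI, rose by 1.05 ± 0.11 in Pa-Tu-8902, from 117 to 144 counts up to 255 to 273, and had a log2 fold change of 0.35 in MIA PaCa-2. IMPACT, an inhibitor of GCN2, was at 0.49 and 0.56 in the lines, and EIF2AK3, which encodes the endoplasmic reticulum kinase PERK, at 0.40 and -0.17, none of them called. PRKRA, which encodes an activator of PKR, was at -0.23 and -0.29 and was not called either. A list of 14 genes held those for eIF2, its exchange factor eIF2B and its phosphatase, with the separate factors EIF2A and EIF2D. Of these, EIF2B3 fell in both lines, by 0.71 and 0.61, and no other was called. EIF2S1, the gene of eIF2alpha itself, was at -0.46 in Pa-Tu-8902 against -0.05 for MIA PaCa-2, and EIF2S3 at -0.14 and -0.52. The initiation factor genes EIF2A and EIF2D were at -0.32 and -0.37 in Pa-Tu-8902, and at -0.35 and -0.31 in MIA PaCa-2, without a call. EIF2B2 was at -0.31 and 0.32, and its difference between the lines of -0.62 was called.

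Genes that encode partners of ATF4 moved in both directions. Of 15 tested in Pa-Tu-8902, 2 rose and 3 fell, and of 14 in MIA PaCa-2, 3 rose and 0 fell, with medians of 0.11 and 0.13. Over all genes tested 9.22% rose and 7.12% fell in Pa-Tu-8902, against 4.36% and 7.64% for MIA PaCa-2. CEBPD, a C/EBP factor, rose by 1.42 ± 0.10 in Pa-Tu-8902, from 458 to 553 counts up to 1158 to 1535, and by 1.501 ± 0.11 in MIA PaCa-2, from 116 to 124 up to 315 to 355. FOSL2 rose by 0.86 and 1.40. FOSL1, an AP-1 subunit, fell by 1.19 ± 0.062 in Pa-Tu-8902 and was at 0.32 in MIA PaCa-2, and JUN fell by 0.78 and was at 0.01. Both differences between the lines were called, at -1.51 and -0.79. JUNB was at -0.54 and -0.47.

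The canonical targets of ATF4 outside the 10 genes were read in 4 lists. Joined, 5 of 46 tested fell and 2 rose in Pa-Tu-8902, and 14 of 50 fell and 2 rose in MIA PaCa-2, with median log2 fold changes of -0.17 and -0.14. The shares of all genes tested that fell were 7.12% and 7.64%, and those that rose 9.22% and 4.36%. The amino acid transporters SLC38A1 and SLC7A11 and the tRNA exporter XPOT fell in both lines. That is 3 of the 5 and 3 of the 14 genes that fell. Some of the 14, such as PHGDH and CBS, were not tested in Pa-Tu-8902 and so could not be called there. XPOT went from 7781 to 8050 normalized counts down to 3523 to 3653 in Pa-Tu-8902 and from 7957 to 9207 down to 4202 to 4257 in MIA PaCa-2, with log2 fold changes of -1.13 ± 0.045 and -1.01 ± 0.066. SLC7A11, which encodes the cystine transporter subunit xCT, fell by 0.73 ± 0.063 in Pa-Tu-8902, and it fell further in MIA PaCa-2, by 1.45 ± 0.14, from 515 to 610 counts down to 155 to 245. These are mRNA values, and the study reports unchanged protein levels of xCT after GOT1 knockdown. The difference for SLC7A11, 0.73, was called (adjusted p = 0.0018, edgeR).

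Within these lists, to be read against the same shares of all genes tested, amino acid synthesis genes had 1 of 7 tested higher and 1 lower in Pa-Tu-8902 and 0 of 11 higher and 4 lower in MIA PaCa-2. SHMT2, the mitochondrial serine hydroxymethyltransferase, fell by 0.70 ± 0.060 in Pa-Tu-8902 and was at 0.18 in MIA PaCa-2, and CTH, the cystathionine lyase that makes cysteine, rose by 1.04 ± 0.21 and was at -0.18. PHGDH, the first enzyme of serine synthesis, fell by 1.20 ± 0.060 in MIA PaCa-2, from 4651 to 5079 counts down to 2120 to 2136, and was at most 2.04 counts in Pa-Tu-8902, where it was not tested. GPT2 fell by 0.87 in MIA PaCa-2 and was at -0.35 in Pa-Tu-8902, a difference between the lines of 0.52 that was under the fold limit. CBS fell by 0.59 in MIA PaCa-2 and was at most 4.35 counts in Pa-Tu-8902, where it was not tested. PSPH, the last enzyme of serine synthesis, was at -0.32 and 0.11 without a call. Of the 10 transporters tested, 0 rose and 3 fell in Pa-Tu-8902 and 0 rose and 4 fell in MIA PaCa-2, with medians of -0.33 and -0.35. SLC1A5 fell by 0.64 in Pa-Tu-8902 and was at -0.38 in MIA PaCa-2. SLC1A4 fell by 0.90 in MIA PaCa-2 and was at -0.41 in Pa-Tu-8902. Neither difference between the lines was called (adjusted p = 0.091 and 0.035, edgeR). In Pa-Tu-8902 and MIA PaCa-2, SLC7A1 was at -0.34 and 0.46 and SLC38A2 at 0.31 and -0.32, both with called differences between the lines. Of 13 aminoacyl-tRNA synthetase and tRNA export genes, 1 fell in Pa-Tu-8902 while 3 fell in MIA PaCa-2. In Pa-Tu-8902 and MIA PaCa-2, WARS was at -0.05 and -0.79 and IARS at -0.52 and -0.67, called only in MIA PaCa-2. The difference between the lines was called for WARS and not for IARS (adjusted p = 0.22, edgeR). MARS was at -0.47 and -0.18 and TARS at -0.45 and -0.04, none of them called. Of the 16 remaining targets tested, 1 rose and 0 fell in Pa-Tu-8902 and 2 rose and 3 fell in MIA PaCa-2. GDF15, a secreted stress cytokine, fell by 2.54 ± 0.26 in MIA PaCa-2, from 67.8 to 72.9 counts down to 8.36 to 14.5, and was at 701 to 839 and 791 to 892 counts in untreated and dox-treated Pa-Tu-8902. KLHL24 rose by 2.06 ± 0.16 in Pa-Tu-8902 and was at 0.54 in MIA PaCa-2. SQSTM1, an autophagy receptor, and TNFRSF10B, a death receptor, rose in MIA PaCa-2 by 0.76 and 0.68. In Pa-Tu-8902 they were at 0.26 and 0.35 without a call. Their differences between the lines, -0.50 and -0.33, were under the fold limit. VEGFA, an angiogenic factor, was at -0.47 and -0.11, and HERPUD1, a gene of protein degradation at the endoplasmic reticulum, at -0.16 and 0.37, without a call.

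Chaperone genes driven by ATF6 and XBP1, the other arms of the response to unfolded protein, had a median of 0.23 in Pa-Tu-8902 against 0.05 for MIA PaCa-2 over 15 genes tested. DNAJB9 rose in both lines, by 0.71 ± 0.10 and 1.11 ± 0.097, and HYOU1 fell by 0.65 ± 0.052 in Pa-Tu-8902, with no other call. That is 1 higher and 1 lower of 15 in Pa-Tu-8902 and 1 higher and 0 lower in MIA PaCa-2, against the same shares of all genes tested. XBP1 itself was at 0.32 and 0.37, SEL1L at 0.40 and 0.27, DNAJC3 at 0.26 and 0.52, PDIA4 at 0.30 and -0.14 and EDEM1 at 0.23 and -0.30. Of 13 immediate early genes tested, some of them also in the list of ATF4 partners, 0 rose and 2 fell in Pa-Tu-8902, JUN and EGR1, and 4 rose and 1 fell in MIA PaCa-2, where 4.36% of genes tested rose and 7.64% fell, against 9.22% and 7.12% in Pa-Tu-8902. EGR1 fell in both lines, by 1.06 and 0.85, while NR4A1, DUSP2, FOS and MYC rose in MIA PaCa-2 by 1.33, 1.21, 0.78 and 0.59.

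**Figure D4:**
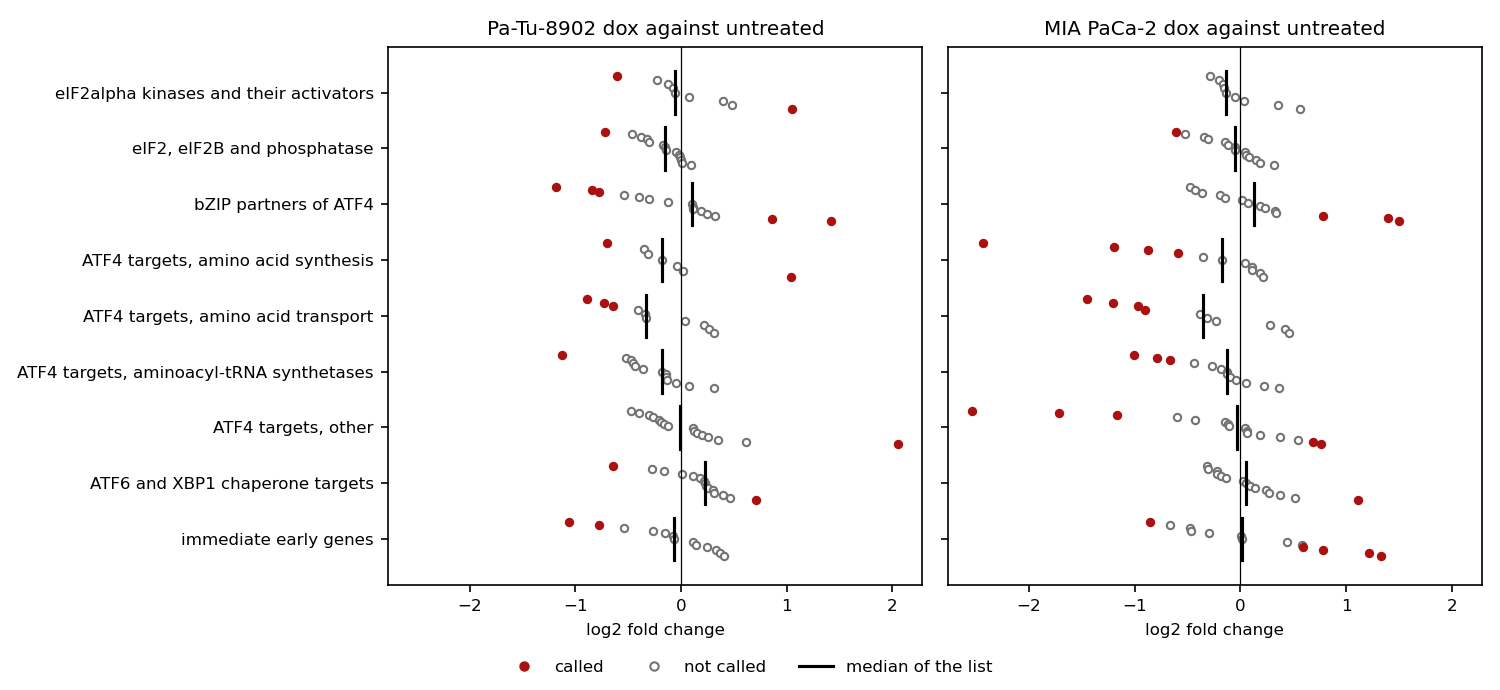
Log2 fold change of dox against untreated for the genes of 9 lists in Pa-Tu-8902 (left) and MIA PaCa-2 (right), with 1 point per gene tested, filled where called, and a vertical bar at the median of each list. The medians lie between -0.35 and 0.23. Single genes such as GDF15 at -2.54 in MIA PaCa-2 and KLHL24 at 2.06 in Pa-Tu-8902 lie far from 0.

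Across the 12 libraries, after each line was centred at its own mean, the 10 genes did not vary as 1 block. Pearson's r of log2 CPM was 0.79 to 0.92 for the 10 pairs among ATF4, DDIT3, TRIB3, CHAC1 and ASNS, with TRIB3 and CHAC1 the closest at 0.92. DDIT4 and PPP1R15A ran against each other most, at -0.85, and SESN2 ran against DDIT3 at -0.79 and TRIB3 at -0.76. The libraries share treatment groups, so r carries the group means as well as the spread within groups, and it is given as a description. ATF4 had a log2 fold change of -0.04 in MIA PaCa-2, so its r over both lines need not hold within that line. Neither r within each line nor r without MIA PaCa-2 untreated replicate 2 was computed. The genes whose pattern was most like that of ATF4 among 11639 others were MRTO4, DCTPP1 and PFN1, at r of 0.99 each. For DDIT3 they were SLC37A4 at 0.99 and CCNH and TTI2 at 0.98, and for ASNS they were GART, KCNIP3 and CPNE3 at 0.99 each (n = 12 libraries).

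**Figure D5:**
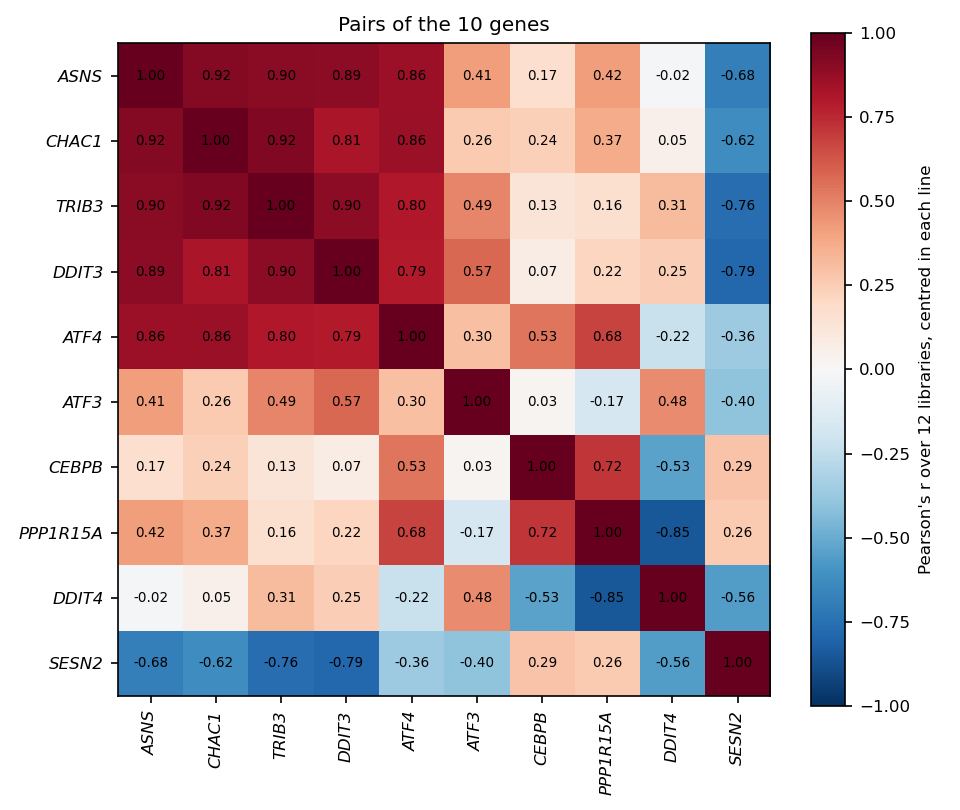
Pearson's r of log2 CPM for each pair of the 10 genes over 12 libraries, centred within each line, from -1 in blue to 1 in red. ASNS, CHAC1, TRIB3, DDIT3 and ATF4 form a red square with r of 0.79 or more, and DDIT4 with PPP1R15A is the lowest pair at -0.85.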

How the data were processed

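Poly(A) RNA from 12 samples was made into libraries with a directional kit. Per the labels and the study's methods, the authors trimmed reads with Trimmomatic 0.39 and ran RSEM 1.3.1 with STAR 2.5.2a on GRCh38 with a GENCODE annotation, and deposited expected counts and TPM per gene and TPM per isoform. The deposited expected counts were neither normalized nor filtered, and 5.34% were not whole. FPKM and per-sample copies of the tables were not used here.

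The expected counts were rounded. Genes that reached 10 counts in 3 or more libraries entered TMM normalization and the quasi-likelihood F test of edgeR 4.0.16 under R 4.3.3. Each line was fitted alone, the untreated lines together, and the difference between lines was the interaction in a fit of 12 libraries. The adjusted p-value is Benjamini-Hochberg over all genes tested. The standard error is the absolute log2 fold change over the square root of F. DESeq2 1.42.0 and limma 3.58.1 on log2(TPM + 1) were alternatives. The edgeR, DESeq2 and limma fits were tested on simulated counts, and the other steps were not. Libraries of a group differed by a chi-square of 2.25 to 27.3 per degree of freedom, so no pair was a duplicate. Gene positions are from GENCODE release 44.

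The 10 genes and the lists were chosen with earlier results of these data known, and no list was tested. From each list the 3 genes with the smallest p in each dox comparison and in the interaction are named, and for ATF4, DDIT3 and ASNS the 3 genes with the highest correlation among those averaging 100 or more normalized counts.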

Additional observations from a re-analysis of the deposited data

Results flagged for a closer look

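The dox response differed between Pa-Tu-8902 and MIA PaCa-2, by the interaction test of edgeR with an adjusted p below 0.01 and a difference of at least 1.5-fold, for 3 of the 10 genes and for 14 of the 51 genes named from the lists. Of all 16544 genes tested, 10.4% were called. The 51 genes were named in part by their p in this same test, so their count does not describe the lists as a whole. The values are differences of log2 fold changes, Pa-Tu-8902 minus MIA PaCa-2. DDIT4 differed by 0.83, ASNS by -0.62 and PPP1R15A by -1.20, and for DDIT4 and PPP1R15A the fold changes had opposite signs in the lines. Among regulators upstream, OMA1 differed by 0.70 and EIF2B2 by -0.62. Among partners of ATF4, FOSL1 differed by -1.51 and JUN by -0.79.

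Among amino acid genes, SHMT2 differed by -0.88, CTH by 1.22, SLC38A2 by 0.63, SLC7A1 by -0.80, SLC7A11 by 0.73 and WARS by 0.75. The CTH levels behind its value were low in Pa-Tu-8902, at 29.4 to 51.3 normalized counts untreated and 80.4 to 86.5 with dox. GDF15 differed by 2.66, on levels of 8.36 to 14.5 normalized counts in dox-treated MIA PaCa-2. KLHL24 differed by 1.51, NR4A1 by -0.96 and DUSP2 by -0.81.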

How the results depend on the processing

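Over the alternatives, 530 recomputed fold changes of the 10 genes kept their direction and their side of the thresholds, 15 lost a call, 8 gained one and 7 changed sign. With no fold limit the calls over all genes were 5692 in Pa-Tu-8902 against 2443, 3973 in MIA PaCa-2 against 1751, and 2799 for the difference between the lines against 1724, and of the 10 genes 6 were called in MIA PaCa-2 and 8 at baseline. With limma on log2(TPM + 1), 1082 genes and 1 of the 10 were called in MIA PaCa-2; the cause was not tested. Leaving out 1 library gave 1 to 4 of the 10 in MIA PaCa-2, 4 to 5 in Pa-Tu-8902, 2 to 3 for the difference and 5 to 7 at baseline. The sign changed for values near 0. ATF4 in MIA PaCa-2 was 0.0153 with limma and -0.0776 to 0.0194 without 1 library, the ATF3 difference between the lines was -0.0494 with limma and -0.0340 to 0.364 without 1 library, and the TRIB3 difference was -0.0988 to 0.0578 without 1 library. The highest ATF4 value left out MIA PaCa-2 untreated replicate 2 and the lowest ATF3 value MIA PaCa-2 dox replicate 2, while the TRIB3 difference was above 0 without Pa-Tu-8902 untreated replicate 3, Pa-Tu-8902 dox replicate 1 or MIA PaCa-2 untreated replicate 1. Libraries with the same number did not deviate together (r of -0.087 to 0.081 over 9 pairs, 0 above 0.1), and a replicate block gave 2380, 1734, 1629 and 8892 calls over all genes and 5, 3, 3 and 5 of the 10. With 3 libraries a group, differences inside the intervals given could not be resolved.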
